A study of Mus musculus with 8 samples.

Results

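Insulin-like growth factor (Igf) signalling genes were followed through embryonic mouse lung mesenchyme that was profiled either fresh or after culture. The set holds 10 genes: the ligand Igf1, the receptor Igf1r, the receptor adaptors Irs1 and Irs2, and the binding proteins Igfbp2, Igfbp3, Igfbp4, Igfbp5, Igfbp6 and Igfbp7. Members were the probe sets whose platform annotation gives one of these symbols, 26 of the 45101 probe sets on the array, and all 10 genes entered a fit of 16112 genes. Irs1 was chosen by its measured fall in culture, the value that selected it. The other members were chosen by gene symbol, with earlier results of these data known. The Irs1 values in culture against fresh stalk are therefore a description with no test. Its results in the other comparisons share culture or stalk arrays with that fall, so they are not independent of the choice. The mesenchyme came from lungs of CD1 mouse embryos at e11.5 to e12.5, and each of 4 groups had 2 arrays. Stalk mesenchyme was kept for 12 h on tissue culture plastic with 400 ng/ml Wnt1 (Wnt1 culture) or in the same growth medium without added Wnt1 (control culture). Tip mesenchyme surrounds the growing branch ends and stalk mesenchyme the airway nearer the trachea, and RNA of both was extracted directly after dissection. No genotype or transgene is named in the labels, and they do not say whether tissue of several embryos was pooled or whether replicates came from separate litters. The spread behind every p-value here is that between these arrays and may be technical.

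Igf1 and its relative Igf2 are secreted ligands that bind the receptor tyrosine kinase Igf1r. The active receptor phosphorylates the adaptors Irs1 and Irs2, which recruit PI3 kinase and so activate Akt, while the Erk cascade is reached through other adaptors. Outside the cell, Igf-binding proteins hold the ligands, carry them and control how much reaches the receptor, and secreted proteases release the ligands again by cutting them. In the mouse embryo, Igf1 and Igf1r are needed for growth and for normal maturation of the lung.

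The proximal promoters of 3 members are shown because these genes carry the contrasts described below: the adaptor Irs1 was low in culture, its paralog Irs2 did not separate the groups, and Igfbp7 was high in culture. Each window runs from 250 bases before to 50 bases after the annotated start, 5′ to 3′ on the gene's strand, from RefSeq on build GRCm38.p6. The Irs1 window is chr1:82291390-82291689, the Irs2 window is chr8:11008880-11009179 and the Igfbp7 window is chr5:77407996-77408295, all on the minus strand. Capitals mark matches to the E-box CACGTG and to the GC box GGGCGG on either strand (CCGCCC on the other).
Irs1: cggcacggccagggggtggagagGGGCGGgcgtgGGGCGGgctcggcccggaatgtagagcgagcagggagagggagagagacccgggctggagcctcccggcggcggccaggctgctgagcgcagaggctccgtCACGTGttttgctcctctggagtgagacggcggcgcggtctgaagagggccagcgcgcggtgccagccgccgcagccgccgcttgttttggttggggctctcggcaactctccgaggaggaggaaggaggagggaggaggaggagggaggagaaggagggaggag
Irs2: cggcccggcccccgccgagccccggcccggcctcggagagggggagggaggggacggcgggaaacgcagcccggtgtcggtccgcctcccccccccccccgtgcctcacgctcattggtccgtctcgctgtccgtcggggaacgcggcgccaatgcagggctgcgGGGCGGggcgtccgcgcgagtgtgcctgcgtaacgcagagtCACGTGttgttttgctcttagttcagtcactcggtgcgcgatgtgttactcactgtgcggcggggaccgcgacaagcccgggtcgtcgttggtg
Igfbp7: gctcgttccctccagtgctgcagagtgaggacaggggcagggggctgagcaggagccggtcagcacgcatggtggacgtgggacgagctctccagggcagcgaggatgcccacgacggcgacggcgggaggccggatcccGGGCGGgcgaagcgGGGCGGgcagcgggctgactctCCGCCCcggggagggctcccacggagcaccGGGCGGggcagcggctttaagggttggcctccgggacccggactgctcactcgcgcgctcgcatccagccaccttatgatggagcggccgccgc
The Irs1 window held 1 E-box, at bases -115 to -110, and 2 GC boxes. The Irs2 window held 1 E-box, at -44 to -39, and 1 GC box. The Igfbp7 window held no E-box and 4 GC boxes between -110 and -39. All 10 members had a window in the RefSeq table, and Igfbp2 had 2. Igfbp2 was the only other member with an E-box, and Igf1r (2 matches) and Igfbp2 (3) the only others with a GC box. The TATA box TATAAA was found for Igfbp4, at -28 to -23, and Igfbp6, at -148 to -143, and the forkhead site GTAAACA for no member. Both strands were searched, and no match overlapped another. Of 32544 promoter windows of this length, 7.17% held the E-box, 35.9% the GC box, 13.6% the TATA box and 3.66% the forkhead site. A match is a run of letters, not a shown binding site.

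Signals are MAS5 intensities, which Affymetrix software computes for each probe set and scales per array, and fold changes are differences of log2(signal + 44). Although every array had been brought to the same trimmed mean, the median signal of the 4 culture arrays (149 to 299) exceeded that of the 4 uncultured arrays (76.5 to 99.8). For Actb, the signal of the 3′ probe set over that of the 5′ one, a ratio that rises as RNA is broken or labelled short, lay at 6.81 to 24.4 on culture arrays and at 2.02 to 4.52 on uncultured ones. Replicates correlated across genes at 0.837 for Wnt1 culture, 0.828 for control culture, 0.974 for tip and 0.975 for stalk. All of these move with culture, and their part in the differences between culture and stalk was not tested. The median of all genes was 0.33 above 0 for Wnt1 culture minus stalk and 0.43 above 0 for control culture minus stalk. Markers of mesenchyme were present in the fresh tissue, where 12 of 12 mesenchyme markers (among them Tbx4, Tcf21, Pdgfra and Col3a1) exceeded the highest array median, 298.6, on an uncultured array. Markers of other cell types were present too. The same count was 6 of 6 for erythroid, 7 of 8 for endothelial, 6 of 7 for mesothelial and 4 of 8 for macrophage markers. It was 3 of 9 for epithelial, 2 of 7 for smooth muscle and 0 of 4 for neural markers. No detection calls were used, and a signal under the highest array median is called dim here.

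Markers of several other cell types moved with culture as well. The smooth muscle list (7 of 7 tested) summed to 149679 to 179045 in Wnt1 culture and 110601 to 126054 in control culture. Its sums were 1245 to 3945 in tip and 4498 to 5692 in stalk. Most of the culture sums came from Acta2, at 122878 and 107622 in Wnt1 culture and 101822 and 89032 in control culture. Acta2 read 3321 and 4457 in stalk. In each culture 6 of 7 markers rose against stalk. Myh11 and Lmod1 passed the filter on low values (above 96.59 on at least 2 arrays) only through the culture arrays, so any part of theirs in that count is a description. Endothelial markers (8 of 9 tested) summed to 998 to 2034 in Wnt1 culture and 2131 to 2228 in control culture, against 5038 to 7520 in tip and 8495 to 10320.4 in stalk, with 4 of 8 lower in Wnt1 culture and 5 of 8 in control culture. Macrophage markers (8 of 8 tested) summed to 11879 to 12165 in Wnt1 culture and 12454 to 22654 in control culture, against 1269.8 to 4189 in tip and 3908 to 3928 in stalk, with 4 of 8 higher in each culture. Of the 12 mesenchyme markers, 5 fell in each culture while 1 rose in Wnt1 culture and 2 in control culture. Their sums were 81074 to 92987 in Wnt1 culture, 74453 to 99092 in control culture, 64190.4 to 73795 in tip and 71859.7 to 82665 in stalk. Vim, the brightest of them on every culture array, read 36399 and 64563 in Wnt1 culture and 36381 and 36024 in control culture. In stalk Vim read 16225 and 14961. Of the 12 differences from stalk, 9 were below 0 in Wnt1 culture and 8 in control culture. Erythroid markers (6 of 7 tested) summed to 141027 to 235220.0 in Wnt1 culture and 148265 to 341882 in control culture, against 84148 to 89558 in tip and 66346 to 117053 in stalk. Of these, 2 of 6 were lower in Wnt1 culture, and 4 lower and 1 higher in control culture. Most of the culture sums came from Hbb-y, at 225931 and 119742 in Wnt1 culture and 327677 and 142301 in control culture. Hbb-y read 50044 and 27707 in stalk. In each culture 5 of the 6 differences from stalk were below 0. Of 9 epithelial markers 1 was higher in Wnt1 culture and 2 in control culture, of 7 mesothelial markers 1 in each, and of 4 tested neural markers none. Of all genes, limma at an adjusted p of 0.05 called 9.15% higher and 6.75% lower in Wnt1 culture against stalk. In control culture against stalk the shares were 16.8% higher and 9.11% lower. The epithelial, mesothelial and neural counts are of the size these shares give. In those lists Cdh1, Nkx2-1, Sftpc, Sox2, Msln, Tubb3, Ret and Stmn2 likewise passed the filter only through the culture arrays. No marker of these lists was at 0, and the part of these cell types in the differences of Igf1r, Irs1, Igfbp6 and Igfbp7 given next was not tested. In bulk tissue, fewer cells of a type and less RNA per cell cannot be told apart.

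**Figure D1:**
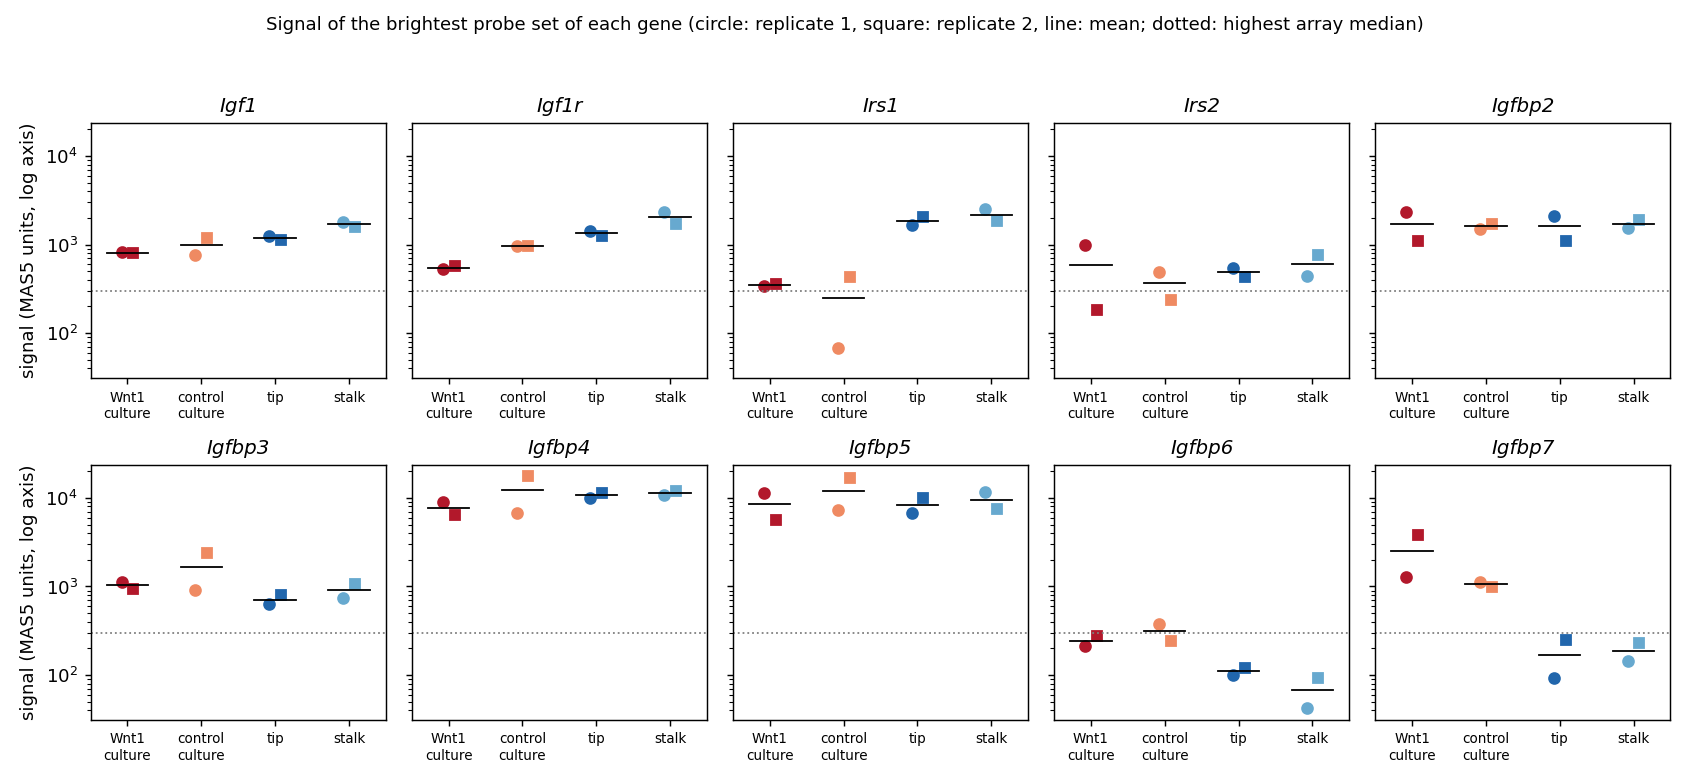
MAS5 signal of each member's brightest probe set on a log axis, by group, with replicate 1 as a circle, replicate 2 as a square, a line at the group mean of 2 arrays and a dotted line at the highest array median (298.6). Igf1r and Irs1 sat lower on all 4 culture arrays than on the 2 stalk arrays, Igfbp7 sat higher, and Igfbp2, Igfbp3 and Igfbp5 overlapped between culture and stalk.

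The receptor gene Igf1r was lower in culture than in fresh stalk, by its brightest probe set. Its signal was 526 and 573 in Wnt1 culture, 965 and 961 in control culture, 1423 and 1255 in tip, and 2338 and 1719 in stalk. The 4 groups did not overlap, and stalk was the highest. Igf1r fell in both cultures, with a log2 difference of -1.79 ± 0.33 (SE) in Wnt1 culture minus stalk (limma adjusted p = 0.0082) and of -1.02 ± 0.33 in control culture minus stalk (adjusted p = 0.038). Both comparisons use the same 2 stalk arrays. As a place on the array, Igf1r stood at percentiles 71.7 and 81.0 in Wnt1 culture, 87.3 and 86.7 in control culture, 88.9 and 87.7 in tip, and 92.8 and 90.1 in stalk. In Wnt1 culture minus stalk the call was lost without stalk replicate 1 (adjusted p = 0.11) or stalk replicate 2 (0.075). In control culture minus stalk it was lost without either tip array (0.078 each), stalk replicate 1 (0.26), stalk replicate 2 (0.16) or control replicate 1 (0.098), after quantile normalization (-0.62, adjusted p = 0.28), and with dim values raised to the highest array median (adjusted p = 0.052). With the mean of its 5 probe sets in place of the brightest, both calls were lost, at -0.27 in Wnt1 culture (adjusted p = 0.54) and -0.21 in control culture (adjusted p = 0.62).

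Igf1, the ligand, was lower in culture than in stalk by its brightest probe set without passing the test, while 2 of its 4 probe sets were above stalk, as described further on. Its brightest probe set gave 820.0 and 804 in Wnt1 culture, 759.9 and 1194 in control culture, 1261 and 1117 in tip, and 1819.6 and 1596 in stalk. Both stalk arrays lay above all 6 others. The difference was -1.03 ± 0.34 for Wnt1 culture minus stalk (limma adjusted p = 0.055) and -0.81 ± 0.34 for control culture minus stalk (adjusted p = 0.089). Wnt1 culture overlapped control culture, and control culture overlapped tip. Without control replicate 2 the control culture difference was -1.12 (adjusted p = 0.031), and without either control array the Wnt1 culture difference passed at 0.026 and 0.027.

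Irs1, the adaptor that carries the receptor's signal to PI3 kinase, had the lowest culture values of the set relative to stalk, as its choice fixed. Its single probe set read 339 and 358 in Wnt1 culture, 67.2 and 427 in control culture, 1684 and 2036 in tip, and 2510 and 1853 in stalk. All 4 culture arrays lay below all 4 uncultured arrays, and tip and stalk overlapped. The differences were -2.49 for Wnt1 culture minus stalk and -3.27 for control culture minus stalk. The control culture difference was -2.22 without control replicate 1 and -4.31 without control replicate 2. Irs1 stood at percentiles 55.1 and 73.5 in Wnt1 culture, 17.8 and 72.2 in control culture, 90.4 and 91.7 in tip, and 93.2 and 90.7 in stalk. It was dim on 1 array only, control replicate 1.

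Irs2, which has the same job as Irs1 and is known from liver and pancreatic islets, did not separate the groups. Its signal was 991 and 184 in Wnt1 culture, 491 and 239 in control culture, 549 and 429 in tip, and 445 and 756 in stalk. The Wnt1 replicates lay on either side of all other arrays. The difference from stalk was -0.36 ± 0.62 in Wnt1 culture (95% interval -1.70 to 0.97) and -0.68 ± 0.62 in control culture (-2.02 to 0.65), with limma adjusted p of 0.68 and 0.40. These intervals leave room for sizeable changes either way.

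Igfbp7, a secreted protein that binds Igfs weakly and is laid down in the matrix around vessels, was the member that rose most. Its brightest probe set read 1285 and 3777 in Wnt1 culture, 1115 and 996 in control culture, 92.8 and 246 in tip, and 145 and 232 in stalk. All 4 culture arrays exceeded all 4 uncultured arrays, on which the probe set was dim. Igfbp7 rose by 3.30 ± 0.52 in Wnt1 culture against stalk (limma adjusted p = 0.0048) and by 2.26 ± 0.52 in control culture against stalk (adjusted p = 0.014). Its percentile on the array was 90.9 and 95.5 in Wnt1 culture, 89.5 and 87.2 in control culture, 48.5 and 68.2 in tip, and 58.5 and 67.1 in stalk. The Wnt1 culture call was lost without stalk replicate 1 (adjusted p = 0.056), and the control culture call without stalk replicate 1 (0.0996), stalk replicate 2 (0.089) or control replicate 1 (0.068). With dim values raised to the highest array median, the differences were 2.72 (adjusted p = 0.077) and 1.68 (adjusted p = 0.15).

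Igfbp6, which prefers Igf2 over Igf1, was dim on 7 of 8 arrays and higher in culture. It read 212 and 278 in Wnt1 culture, 381 and 240.5 in control culture, 98.9 and 121 in tip, and 42.3 and 92.4 in stalk. The culture arrays did not overlap the uncultured ones by signal. Igfbp6 rose by 1.68 ± 0.52 in control culture against stalk (limma adjusted p = 0.034), and its difference in Wnt1 culture against stalk was 1.41 ± 0.52 (adjusted p = 0.074). Its percentile on the array did overlap, at 39.5 and 68.2 in Wnt1 culture, 59.3 and 54.8 in control culture, 49.9 and 57.1 in tip, and 31.4 and 53.5 in stalk. The control culture call was lost without either tip array (adjusted p = 0.070 and 0.071), stalk replicate 1 (0.22), stalk replicate 2 (0.15) or control replicate 1 (0.15). It was also lost after quantile normalization (0.78, adjusted p = 0.39) and with dim values raised to the highest array median (0.16, adjusted p = 0.43).

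Igfbp4 and Igfbp5 read brightly on every array and showed no difference that passed. Igfbp4, an inhibitor of Igf action that the protease Pappa cuts, read 8890.4 and 6400.1 in Wnt1 culture, 6786 and 17594.5 in control culture, 10020.0 and 11368 in tip, and 10818 and 12097 in stalk. Igfbp5, which binds matrix, read 11237 and 5691 in Wnt1 culture, 7215 and 16967 in control culture, 6753 and 9990.0 in tip, and 11577 and 7491 in stalk. Control replicate 2 was the highest array for both genes, and only Igfbp4 in Wnt1 culture lay below both stalk arrays without overlap. The difference from stalk for Igfbp4 was -0.60 in Wnt1 culture (95% interval -1.57 to 0.38) and -0.07 in control culture (-1.04 to 0.91). For Igfbp5 it was -0.22 (-1.28 to 0.84) in Wnt1 culture and 0.25 (-0.81 to 1.31) in control culture.

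Igfbp2 and Igfbp3 overlapped between culture and stalk. Igfbp2, a fetal binding protein, read 2335 and 1086 in Wnt1 culture, 1479 and 1726 in control culture, 2126 and 1109 in tip, and 1539.8 and 1913 in stalk, so replicates differed more than group means. Its difference from stalk was -0.10 in both cultures (95% interval -1.01 to 0.80 in Wnt1 culture), and it took the other sign after quantile normalization (0.42 and 0.41). Igfbp3, the main carrier of Igfs in blood after birth, read 1115 and 938 in Wnt1 culture, 901 and 2381 in control culture, 627 and 795 in tip, and 746 and 1072 in stalk. Its difference from stalk was 0.18 (-0.75 to 1.12) in Wnt1 culture and 0.69 (-0.25 to 1.63) in control culture, the second of which was 0.0098 without control replicate 2 and 1.37 without control replicate 1.

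Counted together, and with Irs1 left out, 1 of 9 members rose (Igfbp7) and 1 fell (Igf1r) in Wnt1 culture against stalk. Of all 16112 genes, 15.9% were called there by limma at an adjusted p of 0.05, 9.15% higher and 6.75% lower. In control culture against stalk, 2 of 9 members rose (Igfbp6 and Igfbp7) and 1 fell (Igf1r), where 25.9% of all genes were called, 16.8% higher and 9.11% lower. At an unadjusted p under 0.05, 4 of 9 members passed in each, against 37.3% of all genes in Wnt1 culture and 42.9% in control culture. The member counts are of the size these backgrounds give, and the Igf1r calls in them were lost with the mean of its probe sets. Because the members were chosen with earlier results of these data known, the counts are descriptions. Groups did not overlap for 5 of 9 members in Wnt1 culture minus stalk and 4 of 9 in control culture minus stalk, against 66.6% and 71.2% of all genes. The median difference over these 9 members was -0.22 in Wnt1 culture and -0.07 in control culture, with all genes at 0.33 and 0.43. After quantile normalization the all-gene medians were 0.10 and 0.11. That step gives every array the same distribution of values, so smaller medians are built into it.

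**Figure D2:**
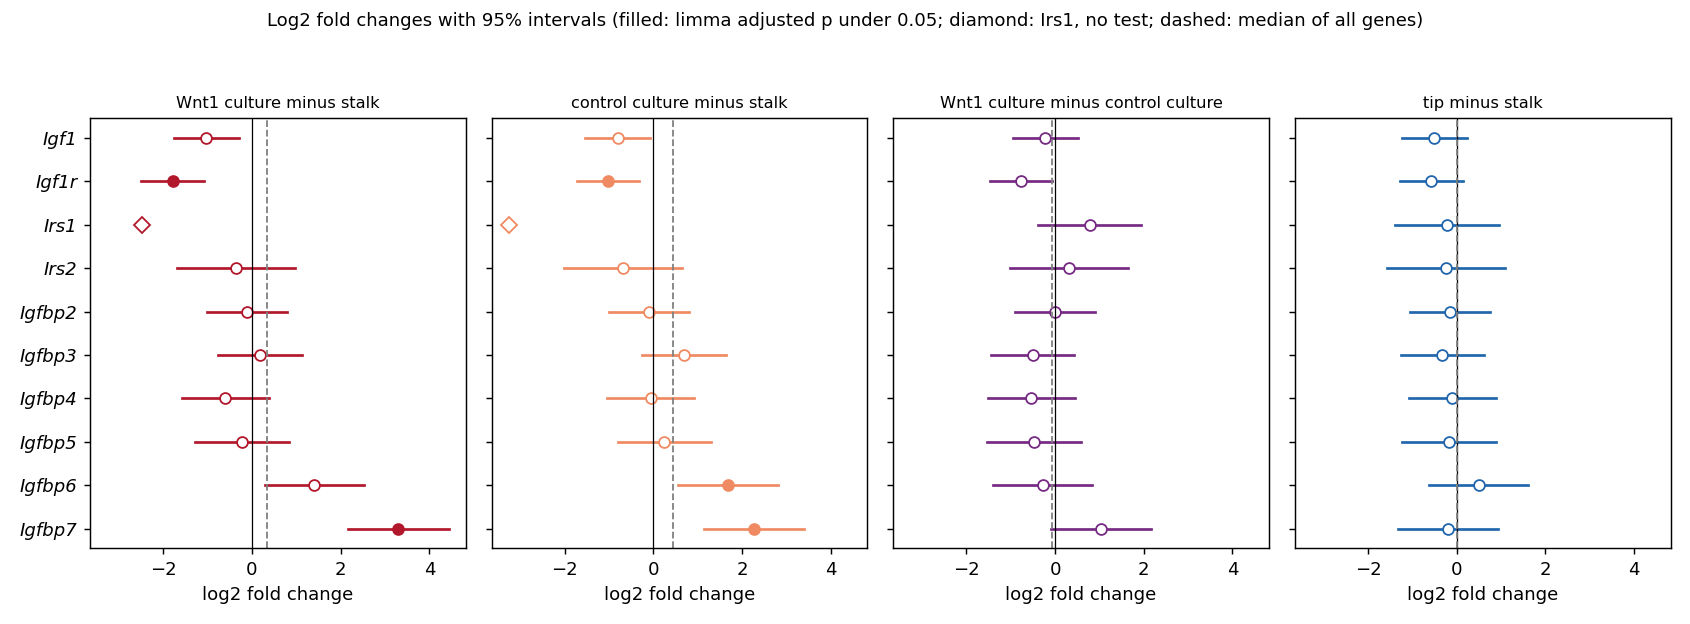
Log2 fold change of each member in 4 comparisons with 95% intervals from limma, filled where the adjusted p is under 0.05, with a dashed line at the median of all genes and Irs1 as a diamond without interval where it was not tested. Filled points are Igf1r (-1.79) and Igfbp7 (3.30) in Wnt1 culture minus stalk, and Igf1r (-1.02), Igfbp6 (1.68) and Igfbp7 (2.26) in control culture minus stalk.

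Wnt1 itself was tested by setting Wnt1 culture against control culture, and none of the 10 members passed. No gene of 16112 was called by limma (0%), and 1311, or 8.14%, had an unadjusted p under 0.05. Among the members only Igf1r did, at 526 and 573 in Wnt1 culture against 965 and 961 in control culture. Its difference was -0.77 ± 0.33 (95% interval -1.47 to -0.06, adjusted p = 0.59). Igfbp7 also did not overlap, at 1285 and 3777 in Wnt1 culture against 1115 and 996 in control culture, with a difference of 1.04 ± 0.52 (-0.10 to 2.17, adjusted p = 0.63), which was 1.80 without Wnt1 replicate 1 and 0.28 without Wnt1 replicate 2. These were 2 of 10 members without overlap, against 26.2% of all genes. Irs1 differed by 0.78 ± 0.54 (-0.39 to 1.94), a value that was -0.26 without control replicate 1. Its fall on these same culture arrays was the ground for its choice, so this value is a description. The other 7 members lay between -0.53 (Igfbp4) and 0.32 (Irs2), and each interval included 0. The median over the members was -0.25, with all genes at -0.08.

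No member passed the test for tip against stalk. No gene of 16112 was called by limma (0%), and 96, or 0.596%, had an unadjusted p under 0.05, none of them a member. All members but Igfbp6 had a difference below 0, from -0.57 ± 0.33 for Igf1r to -0.10 ± 0.45 for Igfbp4, with adjusted p of 0.9999 throughout. Igfbp6 stood at 0.50 ± 0.52. The groups did not overlap for Igf1 (1261 and 1117 in tip, 1819.6 and 1596 in stalk), Igf1r (1423 and 1255 in tip, 2338 and 1719 in stalk) and Igfbp6 (98.9 and 121 in tip, 42.3 and 92.4 in stalk). That is 3 of 10 members, against 34.5% of all genes. The member median was -0.21, with all genes at 0.01.

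Probe sets of one gene did not always move together, which matters most for Igf1 and Igf1r. When all 29333 probe sets were tested separately, 20.5% were called in control culture minus stalk, 10.4% in Wnt1 culture minus stalk, and 0% in the remaining comparisons. Of the 26 member probe sets, 24 passed the filter on low values, and 1421991_a_at of Igfbp4 and 1437804_at of Igfbp7 did not. Igf1 had 4 probe sets, of which 1437401_at (the brightest) and 1434413_at were below stalk in both cultures, by -1.03 and -0.70 in Wnt1 culture and -0.81 and -0.86 in control culture. The others were above stalk, 1419519_at by 0.82 and 1452014_a_at by 1.17 in Wnt1 culture, and by 0.90 and 1.37 in control culture. For 1452014_a_at the signal was 614 and 907 in Wnt1 culture, 809 and 921 in control culture, 294 and 342 in tip, and 377 and 249.2 in stalk, and its rise in control culture passed (adjusted p = 0.033 over probe sets). Averaged over its probe sets, Igf1 differed from stalk by 0.06 in Wnt1 culture and 0.15 in control culture, so these arrays fix no direction for Igf1.

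Igf1r had 5 probe sets, in 2 pairs that share a source sequence in the platform annotation and 1 alone. The first pair was below stalk in both cultures, 1452982_at by -1.79 and 1428967_at by -1.19 in Wnt1 culture, and by -1.02 and -1.98 in control culture. For 1428967_at the signal was 1203 and 533 in Wnt1 culture, 366 and 544 in control culture, 1325 and 1031 in tip, and 1924 and 1860.4 in stalk, and its fall in control culture passed (adjusted p = 0.012 over probe sets). Within that pair, the order of the cultures turned round, with Wnt1 culture minus control culture at -0.77 for 1452982_at and 0.79 for 1428967_at. The second pair was above stalk, 1426565_at by 0.71 and 1452108_at by 1.01 in Wnt1 culture and by 0.06 and 0.74 in control culture, and none of these passed. The last probe set, 1446303_at, stood at -0.10 in Wnt1 culture and 1.16 in control culture. These last 3 were dim on all 4 uncultured arrays.

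Among the binding proteins, Igfbp7 had, beside its brightest probe set, 1423585_at, dim on every array but 1 and past the filter only through culture arrays, and 1437804_at, dim on all 8. Their differences from stalk were 1.98 and 0.46 in Wnt1 culture and 1.31 and 0.88 in control culture, given as values only: the first probe set passed in neither and the second was not tested. Both Igfbp3 probe sets were above stalk, 1458268_s_at by 0.77 in Wnt1 culture and 1.12 in control culture, without passing. Igfbp4 had 5 tested probe sets between -0.77 and 0.41 in Wnt1 culture and between -0.26 and 0.15 in control culture. The weaker Igfbp5 probe set, 1422313_a_at, stood at 0.06 in Wnt1 culture and 0.73 in control culture. Irs1, Irs2, Igfbp2 and Igfbp6 each rest on 1 probe set.

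**Figure D3:**
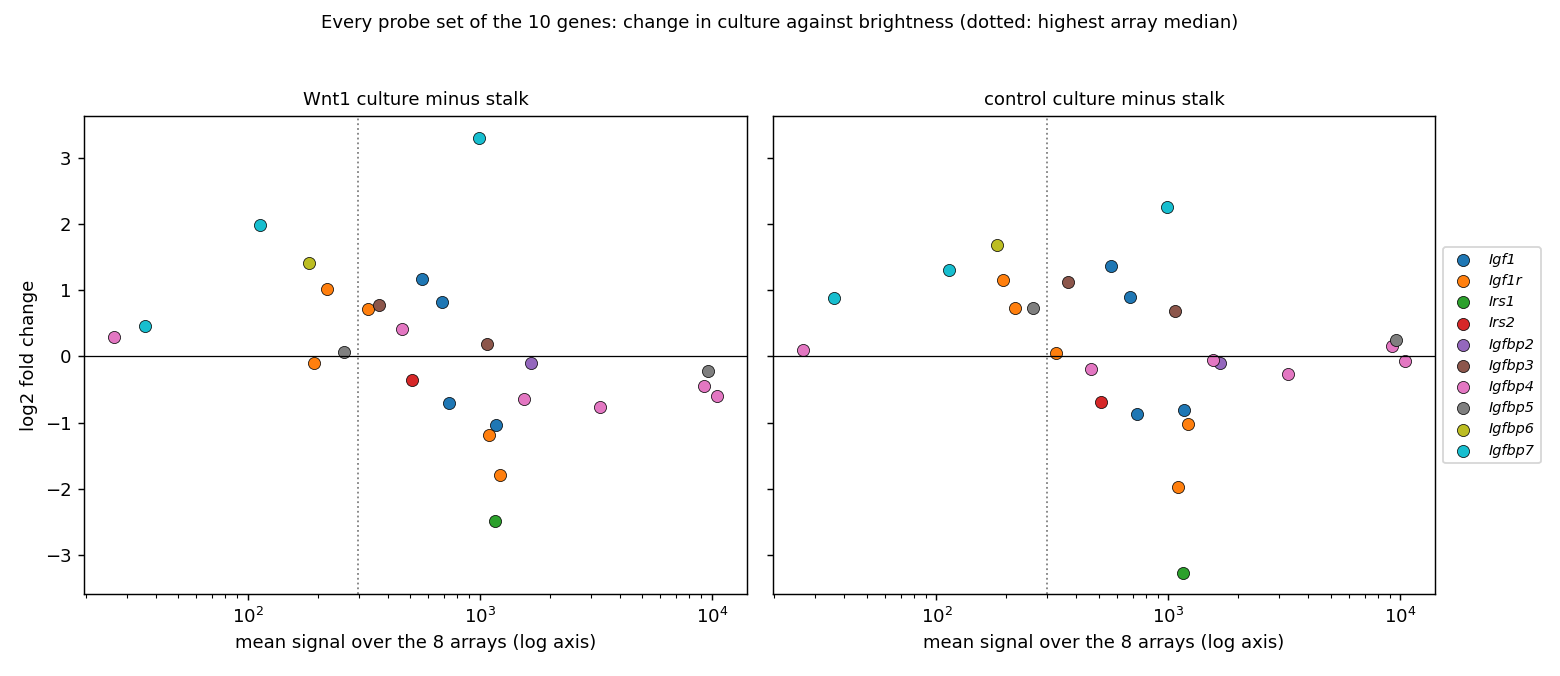
Log2 fold change of all 26 member probe sets in both cultures against their mean signal over the 8 arrays (log axis), coloured by gene, with a dotted line at the highest array median. Probe sets of Igf1 and Igf1r lie on both sides of 0, and of the 3 for Igfbp7 only the brightest lies right of the dotted line.

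Other genes of the pathway were read from 7 lists of 69 genes in all, of which 61 were tested. In Wnt1 culture against stalk, 4 rose and 4 fell, and in control culture 6 rose and 6 fell, against the same backgrounds of 15.9% and 25.9%. Insrr, counted among those that rose in control culture, passed the filter on low values only through the culture arrays. The lists were chosen with earlier results of these data known, so these counts are descriptions. The median difference of the 61 tested genes was -0.28 in Wnt1 culture and -0.17 in control culture. None was called in Wnt1 culture minus control culture or in tip minus stalk.

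Among the other ligands and receptors (6 of 7 tested), Igf2r, which clears Igf2 from the cell surface without signalling, fell in both cultures. It read 2071 and 1222 in Wnt1 culture, 1446 and 1965 in control culture, 4485 and 3393 in tip, and 5768 and 5387 in stalk. All 4 culture arrays lay below all 4 uncultured ones by this probe set, the brighter of 2. By the other, 1424111_at, the culture arrays overlapped tip through control replicate 2 but lay below both stalk arrays. It read 995 and 971 in Wnt1 culture, 815 and 1717 in control culture, 1531 and 1127 in tip, and 1799.96 and 2124 in stalk. By the brighter one the difference from stalk was -1.78 ± 0.35 in Wnt1 culture (limma adjusted p = 0.011) and -1.70 ± 0.35 in control culture (0.0105). Igf2, the main fetal ligand, read between 9042 and 14436 on all 8 arrays by the brighter of its 2 probe sets. By that one its difference was -0.24 ± 0.37 in Wnt1 culture and -0.11 ± 0.37 in control culture. The weaker, 1415931_at, read 447 and 62.1 in Wnt1 culture, 916 and 76.4 in control culture, 156 and 155 in tip, and 164 and 91.9 in stalk. Insr, the insulin receptor, stood at -0.50 ± 0.50 in Wnt1 culture and -0.05 ± 0.50 in control culture by the brightest of its 3 probe sets. Of its others, 1421380_at was dim on all 8 arrays and 1450225_at on all but control replicate 1 (607). Igfbp1, dim on all 8 arrays, stood at 0.94 ± 0.66 in Wnt1 culture and 0.49 ± 0.66 in control culture. Insrr, a relative of the insulin receptor, read 332 and 133 in Wnt1 culture, 471 and 369 in control culture, 19.6 and 79.4 in tip, and 37.4 and 37.2 in stalk. It was dim on all uncultured arrays and passed the filter on low values only through the culture arrays. Its difference in control culture (2.50 ± 0.58), though in the count above, rests on dim values and is given as a value only.

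Of the 7 genes listed as proteases and inhibitors acting on binding proteins, 3 rose in each culture against stalk and none fell, where 9.15% of all genes were called higher in Wnt1 culture and 16.8% in control culture. Because the list was chosen with earlier results of these data known, the count is a description and no test of the list. Htra1, a secreted serine protease that cuts Igfbp5, read 1183 and 1127 in Wnt1 culture, 1839 and 1092 in control culture, 73.2 and 212 in tip, and 151 and 182 in stalk. Its rise was 2.51 ± 0.46 in Wnt1 culture (limma adjusted p = 0.0081) and 2.80 ± 0.46 in control culture (0.0051). Htra3, a related protease, rose by 1.62 and 2.14 in the same order, and both genes were dim in stalk (104 and 140.3 for Htra3). Cpe, carboxypeptidase E, rose by 1.46 and 1.26, though it trims prohormones such as proinsulin and is not known to cut Igf-binding proteins. Pappa, the protease of Igfbp4, was not called, and read 94.7 and 251 in Wnt1 culture, 271 and 465 in control culture, 105 and 46.9 in tip, and 139.5 and 173 in stalk.

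Downstream of the receptor, 4 of 48 tested genes were called in Wnt1 culture against stalk and 7 of 48 in control culture, against 15.9% and 25.9% of all genes. Of 14 adaptors and negative regulators, 1 was called in Wnt1 culture against stalk, the phosphatase Ptpn11 at -1.25 ± 0.38 (limma adjusted p = 0.042), and none in control culture. Of 11 genes of PI3 kinase and Akt, none was called in Wnt1 culture, and in control culture the kinase Akt1 (-2.36 ± 0.66, adjusted p = 0.025) and the PI3 kinase regulatory subunit Pik3r3 (-1.86 ± 0.54, adjusted p = 0.028) fell. Akt1 read 1469 and 1959 in Wnt1 culture, 124 and 1228 in control culture, 2289 and 2591 in tip, and 2262 and 2396 in stalk, so control replicate 1 stood far below the rest, as it did for Irs1.

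In the mTor branch (9 tested), Eif4ebp1, the translation repressor that mTor switches off, rose by 2.11 ± 0.38 in Wnt1 culture and 1.37 ± 0.38 in control culture (limma adjusted p = 0.0080 and 0.025). Mtor fell in Wnt1 culture (-1.24, adjusted p = 0.039), and Tsc2, a brake on mTor, fell in control culture (-1.96, adjusted p = 0.014). Tsc2 read 329 and 375 in Wnt1 culture, 56.7 and 37.5 in control culture, 321 and 327 in tip, and 309.95 and 304 in stalk. Tsc2 was thus dim in control culture and just above the dim level in stalk, and Wnt1 culture minus control culture was 2.13 ± 0.45 (adjusted p = 0.54). In the Erk branch (3 of 8 tested) Map2k1 fell in control culture (-1.23, adjusted p = 0.019). Among 11 Foxo factors and genes that Foxo induces, Ccng2 fell in both cultures (-1.18 in Wnt1 culture and -1.21 in control culture, adjusted p = 0.045 and 0.031) and Bcl6, dim in stalk at 95.5 and 149, rose in control culture (1.41, adjusted p = 0.049).

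For lists without a call, the gene with the largest difference is given as a value. In Wnt1 culture minus stalk these were Pdpk1 at -1.53 ± 0.81 and Sos1 at -0.95 ± 0.34, and in control culture minus stalk Irs4 at 1.33 ± 0.71. In Wnt1 culture minus control culture they were Insrr (-0.84), Pappa (-0.99), Shc1 (1.91), Akt1 (1.91), Tsc2 (2.13), Map2k1 (0.73) and Pik3ip1 (1.69). In tip minus stalk they were Insr (-0.56), Pappa (-0.78), Socs3 (-0.66), Pik3ca (0.54), Rheb (0.24), Sos1 (-0.21) and Sesn3 (-0.66). Irs4, Pappa and Pik3ip1 exceeded the highest array median on 1 array each and Insrr on 3, so their differences rest on dim values. Shc1 (113 and 262) and Tsc2 were dim on both control culture arrays, Akt1 on control replicate 1 (124) and Pdpk1 on Wnt1 replicate 1 (238). The differences given here for these genes thus rest in part on dim values too.

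**Figure D4:**
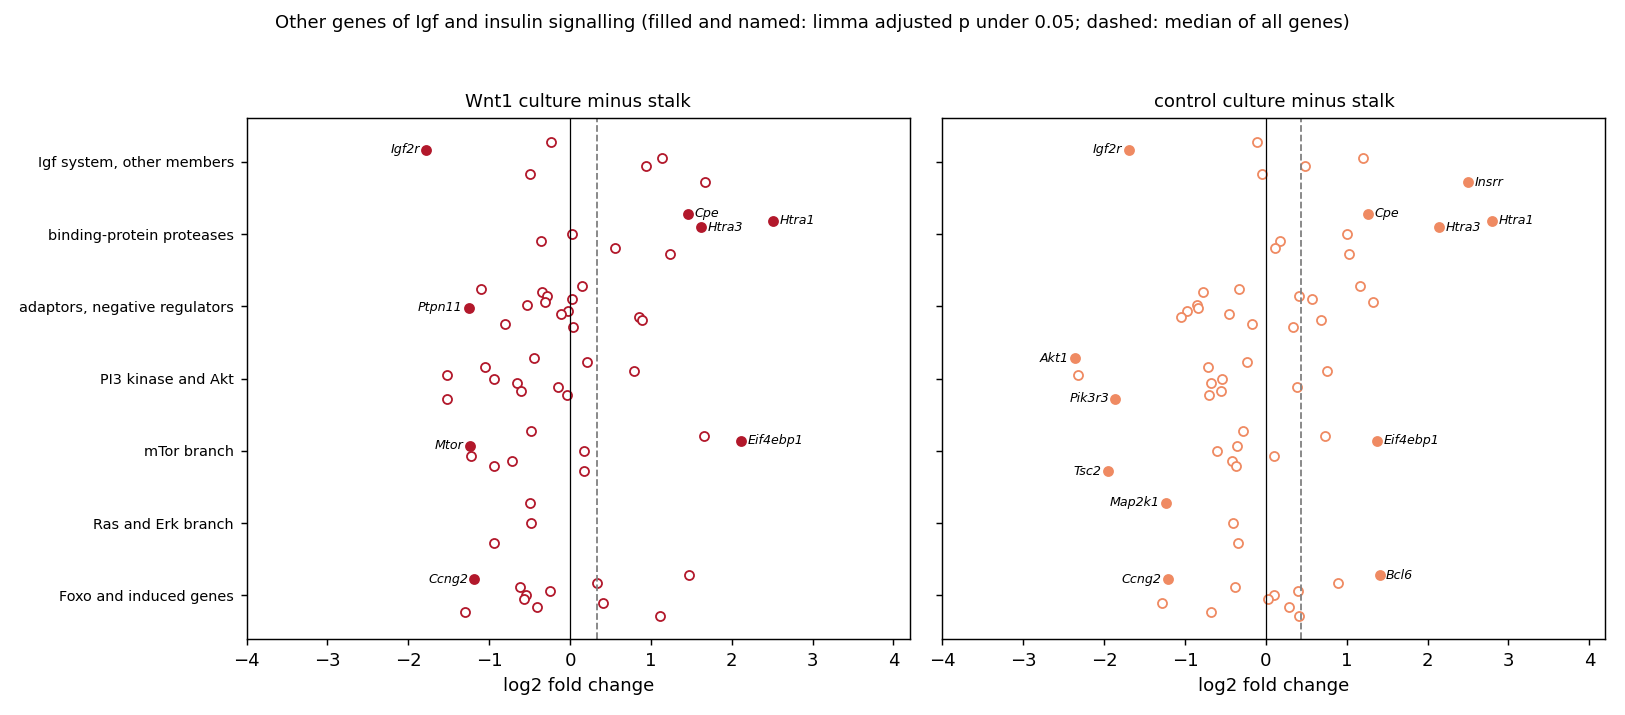
Log2 fold change of the 61 other pathway genes tested, in 7 lists, for Wnt1 culture minus stalk and control culture minus stalk, filled and named where the limma adjusted p is under 0.05, with a dashed line at the median of all genes. Igf2r (-1.78 and -1.70), Htra1 (2.51 and 2.80), Htra3, Cpe, Eif4ebp1 and Ccng2 are filled in both panels.

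The members also differed in how they ran together over the 8 arrays, which fall into cultured and uncultured ones and share the array's scaling, so these correlations are descriptions only. Each gene was read from its brightest probe set. By these, Igf1 and Igf1r had the highest Pearson r of any pair, 0.894, followed by Igfbp6 and Igfbp7 at 0.850 and Igf1 and Irs1 at 0.843. Other probe sets of Igf1 and Igf1r moved the other way in culture, so the r of these genes depends on the probe set used. Irs1 and Igfbp6 had the lowest, at -0.943. Igfbp4 and Igfbp5 had an r of 0.759, and both were high in control replicate 2. Irs2 and Igfbp2, which did not separate the groups, had an r of 0.700. By the same measure among 10909 other genes (10910 for Igfbp6), the most alike gene was Flii for Igf1 (0.980), Ngly1 for Igf1r (0.984), Phactr4 for Irs1 (0.997) and Nid2 for Irs2 (0.962). For the binding proteins it was Lmln for Igfbp2 (0.906), Eya4 for Igfbp3 (0.975), Psap for Igfbp4 (0.982), Cep164 for Igfbp5 (0.948), Plcxd2 for Igfbp6 (0.983) and Vamp8 for Igfbp7 (0.990). Each of these r is the highest among all genes searched, over 8 arrays only, so the search itself favours high values. Phactr4 read 976 and 1058.5 in Wnt1 culture, 659.9 and 1097 in control culture, 1727 and 1802 in tip, and 1903 and 1658 in stalk, with control replicate 1 the lowest as for Irs1.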

How the data were processed

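Lung mesenchyme of 4 groups was measured on 8 arrays, 2 per group, and the number of arrays limits the precision. RNA was amplified with 2 rounds of cDNA synthesis and biotin-labelled, per the labels' protocols. Each deposited value is a linear intensity of 1 probe set on 1 array. The submitters' processing notes name Affymetrix Expression Console and MAS5 as the authors' software, whose version and settings the sources used here do not give. The highest array median, 298.6, stood in for a noise floor.

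The array has 45101 probe sets, 64 of them controls that were not used. In the platform annotation 34945 have 1 gene symbol, 932 several and 9160 none. Of the first, 34741 matched a RefSeq gene of GRCm38.p6, and 0 symbols changed. Probe sets above 96.59 (the 40th percentile) on at least 2 arrays were kept. Each gene was read from the probe set with the highest mean log2 value, which left 16112 genes. The deposited intensities were tested as log2(value + 44), 44 being the 25th percentile, which understates changes of dim genes. One model over the 8 arrays and 4 groups was made in R 4.3.3 with limma 3.58.1 (lmFit, contrasts.fit, eBayes with trend, no covariates). Tests were two-sided, p-values were adjusted by Benjamini-Hochberg over the 16112 genes, and 0.05 was the threshold. With 2 arrays against 2 an exact permutation test cannot go below 0.33, and none was run. The script was tested on simulated data. Python 3.11.15 and matplotlib 3.10.9 were used for promoters and figures.

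The members and lists were chosen with earlier results of these data known. One listed gene is not reported here. Named were all members with their probe sets, up to 3 called genes per pathway list and comparison by p (for a list with none, its largest change), Igf2, Igf2r, Insr, Igfbp1, and the gene most like each member by Pearson r, among genes above the highest array median on at least 2 arrays. The alternatives were 11 settings and 8 fits that each left out 1 array.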

Additional observations from a re-analysis of the deposited data

How the results depend on the processing

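No member was called for Wnt1 culture minus control culture or tip minus stalk under any setting, and 0 genes were called for tip minus stalk under all of them. For Wnt1 culture minus control culture, 0 genes became 1 with a pseudocount of 10, with the replicate block or with the mean of probe sets, and 58 with dim values raised to the highest array median (a signal floor). Leaving out 1 array gave 0 to 56 genes there. For control culture minus stalk, the 4179 genes became 1329 after quantile normalization (681 of them higher, against 2712 before) and 668 with the floor, with 53 to 6283 when 1 array was left out. The 3 members became 1 and 0 under the first 2 of these, 2 with the mean of probe sets and 0 to 4 with 1 array left out. For Wnt1 culture minus stalk, the 2562 genes became 752 after quantile normalization, 3904 with the replicate block and 297 with the floor, with 65 to 5468 when 1 array was left out. Its 2 members became 1 with the mean of probe sets and 1 with the floor, and 0 to 3 with 1 array left out. With the floor, Igf1r missed the threshold in control culture minus stalk without a change of its value (adjusted p = 0.052), and Irs1 stood at -2.45. The cause of these moves was not tested.

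Signs turned in 8 cases other than fits without an array. With the mean of probe sets, Igf1 became 0.15 in control culture minus stalk and 0.064 in Wnt1 culture minus stalk, and Igfbp7 became 0.21 in tip minus stalk. After quantile normalization, Igfbp2 became 0.41 in control culture minus stalk, 0.42 in Wnt1 culture minus stalk and 0.017 in Wnt1 culture minus control culture, where it was 0.0011 with a pseudocount of 100. With the floor, Irs1 became -0.035 in Wnt1 culture minus control culture. With 1 array left out, the ranges that crossed 0 in Wnt1 culture minus control culture were Igf1 -0.53 to 0.091, Irs1 -0.26 to 1.82, Irs2 -0.77 to 1.41, Igfbp2 -0.54 to 0.54, Igfbp3 -1.18 to 0.17, Igfbp4 -1.22 to 0.15, Igfbp5 -1.08 to 0.15 and Igfbp6 -0.57 to 0.014. In control culture minus stalk they were Igfbp2 -0.25 to 0.05, Igfbp4 -0.75 to 0.62 and Igfbp5 -0.37 to 0.86. In Wnt1 culture minus stalk they were Irs2 -1.45 to 0.73, Igfbp2 -0.64 to 0.43, Igfbp3 -0.064 to 0.43 and Igfbp5 -0.71 to 0.27. In tip minus stalk they were Irs2 -0.60 to 0.12, Igfbp2 -0.61 to 0.30, Igfbp5 -0.49 to 0.13 and Igfbp7 -0.74 to 0.35.

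The labels do not say that replicate numbers pair the samples. Deviations of same-numbered arrays correlated at 0.14 for Wnt1 culture and stalk, 0.14 for control culture and stalk, 0.30 for Wnt1 and control culture, and -0.086 for tip and stalk. With the replicate block, Igf1 passed in Wnt1 culture minus stalk (-1.03, adjusted p = 0.044), and no other member's call changed. Genes outside the members were not refitted one by one under these settings.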
